A study of Mus musculus with 5 samples.

Results

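The sarcomere is the contractile unit of striated muscle, and its genes were examined in satellite cells, the stem cells of skeletal muscle. The set was fixed by name and held 44 genes for thick and thin filaments, titin, the Z-disc, the M-band and 2 proteins of the fiber cytoplasm. Of these, 42 had a row in the expression table of 22683 genes. Myl3 and Tnnc2 were not analysed here. The study compared cells described as quiescent satellite cells from wild type mice (2 libraries) with those from mdx mice (3 libraries), the latter labelled as muscular dystrophy. The mdx mutation lies in Dmd, which encodes dystrophin, and the strain is a model of Duchenne muscular dystrophy. Each library was made from the total RNA of 10000 to 20000 cells sorted by flow cytometry, with a stranded low-input kit, and the labels name no treatment. The sources used here do not state age, sex, strain background, muscle or sorting gate.

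In a myofiber, myosin of the thick filament pulls on actin of the thin filament, and troponin and tropomyosin on the thin filament gate this with calcium. Titin spans from the Z-disc, which anchors thin filaments, to the M-band, which links thick filaments. Most of these proteins exist as fast, slow and developmental isoforms from separate genes, and embryonic and neonatal forms come before the adult ones when muscle forms or regenerates. Satellite cells rest beside the fiber and do not build sarcomeres until they differentiate.

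Levels are given as normalized counts, that is, reads per gene scaled by the authors to make libraries comparable and rounded to whole numbers. Library totals were 15217054 and 16825045 in wild type, and 15930638, 12473348 and 13932270 in mdx. Whether each library is a separate animal is not stated, and the p-values cover only the spread among these 5 libraries, possibly a technical one. Dmd itself was at 11826 and 9266 in wild type against 4642, 4116 and 3700 in mdx. Xist, the RNA of the inactive X chromosome, was at 30235 and 30176 in wild type against 0, 0 and 12 in mdx, and Ddx3y, on the Y chromosome, was at 9 and 0 against 966, 946 and 827. Genotype and sex cannot be told apart in any comparison here. The satellite cell factor Pax7 was at 9103 and 7644 in wild type against 12767, 9751 and 14989 in mdx.

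Many sarcomere genes rose in mdx, among them titin, nebulin, both sarcomeric actins and the tropomyosins Tpm1 and Tpm2. Myh3, Myh8 and Mybph, grouped here as developmental, rose as well. Together the 42 genes held 16800 and 13528 normalized counts in wild type (0.11% and 0.0804% of the library total) and 71963, 96008 and 50474 in mdx (0.452%, 0.77% and 0.362%). Ttn alone made up 14.7% and 15.5% of that sum in wild type and 51.6%, 67.4% and 46.9% in mdx. Without Ttn the sums were 14325 and 11428 against 34799, 31264 and 26789, so both sums were higher in every mdx library. In these bulk samples, more cells of a type and more RNA per cell cannot be told apart.

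Differences were tested with limma on log2(normalized count + 2), and p-values were adjusted (Benjamini-Hochberg) across the 18199 genes with at least 10 counts in at least 2 libraries. A gene is said to have risen or fallen where its adjusted p was under 0.05. Of the 42 genes, 41 passed the filter, and Myoz3 did not. Called higher in mdx were 17 of the 41, where 14.6% of all tested genes were. Called lower were 2, Tnnt1 and Myh7, where 10.3% of all tested genes were, and 22 were not called. Called in either direction were 24.9% of all tested genes. All 3 mdx libraries lay above both wild-type libraries for 22 of the 41 (28.2% of all tested genes) and below for 3 (23.8%). The filter favours such calls, because 11 of the 41 were under 10 in both wild-type libraries and passed through mdx, and 6 of these 11 were called higher. Among the 22 sarcomere genes with a mean of at least 100 over the 5 libraries, 11 were called higher and 1 lower, where 19.0% and 15.6% of all genes with that mean were. Their median log2 fold change was 1.6, against 0.00799 for all genes with that mean and 0.135 for all tested genes. That mean includes the mdx libraries, so it too can favour genes that are high there. Actn2, Myl1, Myh3 and Actc1, called higher, had wild-type means of 1.5, 22, 28.5 and 57.5. The uncalled genes Mybpc2, Tnni2 and Xirp2 also had wild-type means under 100. The number called higher was 11 of 37 tested sarcomere genes without mdx 1, 10 of 39 without mdx 2 and 11 of 37 without mdx 3. Over all tested genes it was 1709 of 17134, 1491 of 17118 and 1450 of 17123 in the same order. The number of sarcomere genes called lower was 1, 0 and 0, and over all tested genes 1266, 1186 and 1112. Called higher in each of these fits were 9 genes: Ttn, Neb, Tpm1, Tpm2, Acta1, Actn2, Mybpc1, Myl1 and Myh8.

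**Figure D1:**
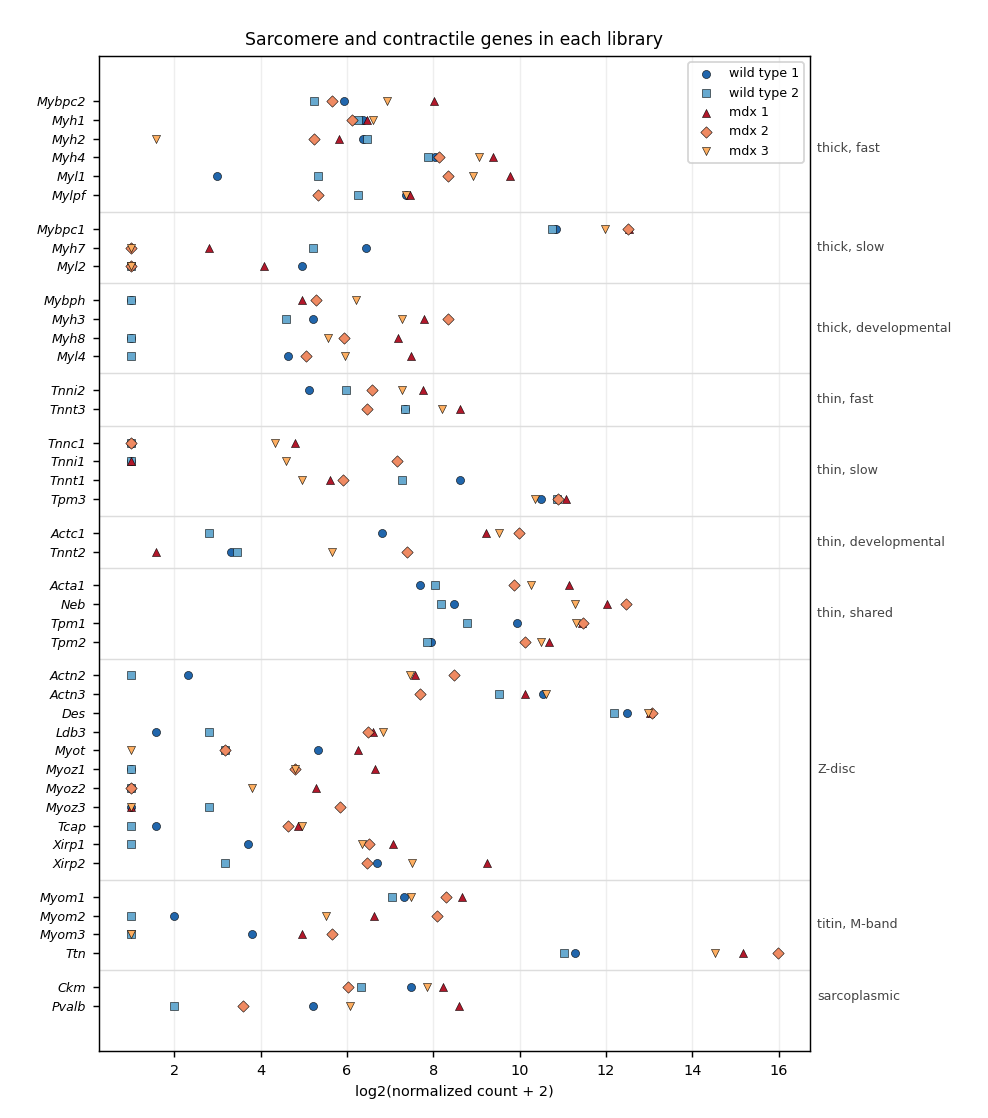
Level of each of the 42 genes, as log2(normalized count + 2), in the 2 wild-type (blue) and 3 mdx (red to orange) libraries, grouped by the part of the sarcomere. Ttn, Neb, Tpm2 and Acta1 show mdx points clear to the right of both wild-type points, Myh1 and Tpm3 show mixed points, and Tnnt1 and Myh7 show mdx points to the left.

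**Figure D2:**
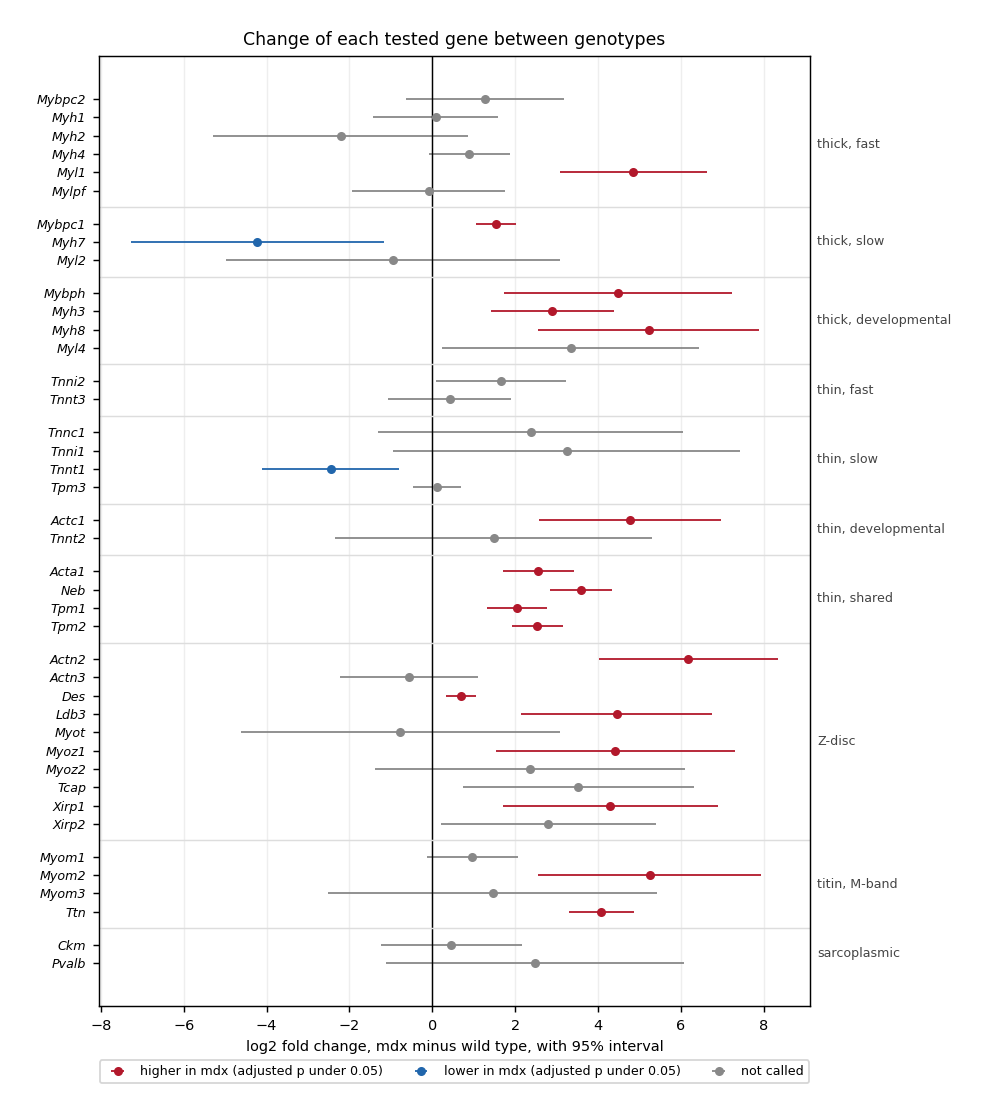
Log2 fold change (mdx minus wild type) of the 41 tested genes with 95% intervals from the limma fit, coloured by call. The 17 genes called higher include all 4 shared thin filament genes and the slow isoform Mybpc1. The 2 called lower, Myh7 and Tnnt1, are slow isoforms too.

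Many RNAs of other cell types moved with these genes, where 14.6% of all tested genes were called higher and 10.3% lower. Of 12 endothelial markers 11 were called higher in mdx and 1, Tek, lower, and their summed level was 3018 to 3613 in wild type and 22432 to 28595 in mdx, with Emcn, Cldn5 and Ptprb listed at 0 in both wild-type libraries. Of 12 macrophage markers 11 were called higher, with sums of 429 to 604 against 10697 to 15815 and with Itgam, Mrc1, C1qa, C1qb and C1qc at 0 in wild type. Of 10 markers of fibro-adipogenic progenitors 9 were called higher and 1, Dpt, lower, with sums of 18433 to 26824 against 81891 to 144618 and none at 0 in both wild-type libraries. Of 7 tested pericyte markers 4 were called higher, 0 lower and 3 not called, with sums of 8664 to 11202 against 16282 to 23014. Notch3, not called, made up most of these sums, at 10021 and 7611 against 12607, 10608 and 17437. Kcnj8, also not called, was below wild type in every mdx library, at 134 and 162 against 0, 99 and 88. Of 10 tested contractile genes of smooth muscle, which include Des, 5 were called higher and 1, Tagln, lower, and Myh11, the smooth muscle myosin heavy chain gene, was at 2 and 0 against 1305, 1688 and 1220. Smooth muscle cells also express Tpm1, Tpm2 and Des. The part of these other cells in the sarcomere gene levels was not tested.

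The upstream sequences of 6 genes are printed because these genes carry the main contrasts: Acta1, Actc1, Ttn, Myl1 and Myh3 rose together, and Tnnt1 fell. Each is the 250 bases before the RefSeq start of the gene, 5′ to 3′ on the strand of the gene, in GRCm38 (mm10) at chr8:123894776-123895025 for Acta1, chr2:114052876-114053125 for Actc1, chr2:76982548-76982797 for Ttn, chr1:66945057-66945306 for Myl1, chr11:67078050-67078299 for Myh3, chr7:4515976-4516225 for Tnnt1. Myh3 lies on the plus strand and the other 5 on the minus strand. Capitals mark matches on either strand to short motifs of muscle promoters: the general E-box (letters CANNTG), its overlapping form read as the myogenic E-box (letters CAGCTG), the MCAT element (letters CATTCC), the TATA box (letters TATAAA), the MEF2 core (letters TAAAAATA) and the CArG box, the site of serum response factor.
Acta1: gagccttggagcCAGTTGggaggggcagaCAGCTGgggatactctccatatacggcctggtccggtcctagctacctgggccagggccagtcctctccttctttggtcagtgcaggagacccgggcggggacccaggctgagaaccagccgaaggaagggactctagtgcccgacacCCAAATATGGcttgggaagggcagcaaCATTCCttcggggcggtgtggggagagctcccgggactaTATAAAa
Actc1: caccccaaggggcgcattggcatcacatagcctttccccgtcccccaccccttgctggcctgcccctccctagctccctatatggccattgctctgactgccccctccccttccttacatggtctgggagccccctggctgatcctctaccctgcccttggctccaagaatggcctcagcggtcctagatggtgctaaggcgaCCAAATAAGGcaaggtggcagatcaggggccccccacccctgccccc
Ttn: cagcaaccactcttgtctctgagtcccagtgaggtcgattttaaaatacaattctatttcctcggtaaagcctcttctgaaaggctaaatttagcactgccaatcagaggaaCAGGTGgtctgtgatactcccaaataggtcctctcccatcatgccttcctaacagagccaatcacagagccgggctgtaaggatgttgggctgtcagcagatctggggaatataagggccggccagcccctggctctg
Myl1: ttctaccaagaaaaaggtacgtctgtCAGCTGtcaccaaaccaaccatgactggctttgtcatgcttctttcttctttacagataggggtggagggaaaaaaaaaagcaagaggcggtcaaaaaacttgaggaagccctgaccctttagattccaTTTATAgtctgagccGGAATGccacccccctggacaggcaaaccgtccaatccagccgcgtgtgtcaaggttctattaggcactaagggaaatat
Myh3: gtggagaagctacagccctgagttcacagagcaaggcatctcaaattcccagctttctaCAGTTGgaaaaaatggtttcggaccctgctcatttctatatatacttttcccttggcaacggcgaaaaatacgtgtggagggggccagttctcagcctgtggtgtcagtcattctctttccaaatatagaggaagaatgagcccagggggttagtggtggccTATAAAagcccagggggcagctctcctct
Tnnt1: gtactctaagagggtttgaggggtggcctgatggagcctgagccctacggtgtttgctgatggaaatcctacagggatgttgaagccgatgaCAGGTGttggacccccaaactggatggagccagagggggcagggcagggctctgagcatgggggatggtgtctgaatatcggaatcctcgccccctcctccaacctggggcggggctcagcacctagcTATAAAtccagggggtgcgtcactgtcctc
Both actin promoters held a CArG box, and the Acta1 window also held the myogenic E-box, the MCAT element and the TATA box. The Myl1 window held those 3 motifs and no CArG box, with the MCAT element and the TATA box on the opposite strand. A TATA box was present near the start in both Myh3, which rose, and Tnnt1, which fell. RefSeq windows were matched by symbol for 34 of the 44 genes, in 41 windows, and compared with all 32851 windows of the same length. The myogenic E-box was in 6 of the 14 windows of genes called higher, in 0 of 3 of genes called lower, in 9 of 22 of genes not called and in 13% of all windows. A CArG box was in 4 of 14, 0 of 3 and 2 of 22, and in 1.47% of all windows. The MCAT element was in 4 of 14, 1 of 3 and 5 of 22 (12.6% of all), the TATA box in 5 of 14, 1 of 3 and 3 of 22 (12.4%), the MEF2 core in 0, 0 and 3 (2.45%), and the general E-box in 11, 3 and 18 (66.2%). Windows of called and uncalled sarcomere genes thus both held the myogenic E-box, and these matches describe letters, not bound sites.

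Titin, the giant spring of the sarcomere, had the smallest p-value of the 41 genes. Ttn (chromosome 2, 76703980 to 76982547, mm10) was at 2475 and 2100 in wild type against 37164, 64744 and 23685 in mdx. Every mdx library lay far above both wild-type libraries, with mdx 2 highest and mdx 3 lowest. Ttn rose 16.9-fold (log2 fold change 4.08, SE 0.34, 95% interval 3.30 to 4.86, limma adjusted p = 9.32e-05). It shares 453 bases of exon with an antisense transcript. Per kilobase of the longest transcript, Ttn went from 21.4 ± 2.48 (SD, n = 2) to 392 ± 196 (n = 3), which still lay below the desmin gene.

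Of the 3 M-band genes, 1 was called, where 24.9% of all tested genes were called in either direction. Myom2, encoding M-protein of fast fibers, was at 2 and 0 in wild type against 97, 268 and 44 in mdx, and it rose (log2 fold change 5.24, SE 1.19, limma adjusted p = 0.0127). That call was lost without mdx 1 (limma adjusted p = 0.0557) or mdx 2 (0.0526), and the log2 fold change was 5.74 or 4.74 without wild type 1 or 2. Myom1, encoding myomesin, was at 158 and 129 against 404, 311 and 177, with no overlap but no call (limma adjusted p = 0.181). It shares 207 bases of exon on the opposite strand with Myl12a, which was at 6427 and 5357 in wild type, and whether the counting used strand is not given here. Myom3, encoding myomesin 3, stayed at 48 or less in every library and was not called (0.577). Its 95% interval of −2.51 to 5.43 includes the log2 fold change of Myom2, so a difference between them was not shown.

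All 4 shared thin filament genes rose, where 14.6% of all tested genes did. Neb (chromosome 2, 52136647 to 52338798), encoding nebulin, which runs along the thin filament, was at 354 and 287 in wild type against 4133, 5665 and 2474 in mdx. Neb rose 12.1-fold (log2 fold change 3.59, SE 0.33, 95% interval 2.85 to 4.34, limma adjusted p = 0.000136). Acta1 (chromosome 8, 123891769 to 123894751), encoding the actin of adult skeletal muscle, was at 206 and 260 against 2255, 933 and 1234 (log2 fold change 2.56, SE 0.38, limma adjusted p = 0.00163). For both genes every mdx library was above every wild-type library.

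The tropomyosins Tpm1 and Tpm2, which wind along actin, rose as well. Tpm2 was at 244 and 230 in wild type and 1645, 1118 and 1444 in mdx (log2 fold change 2.54, SE 0.27, limma adjusted p = 0.000314). Tpm1 was at 981 and 438 against 2788, 2853 and 2512 (log2 fold change 2.05, SE 0.32, limma adjusted p = 0.00205). Tpm3, the slow-fiber tropomyosin gene that also makes forms used in non-muscle cells, was at 1435 and 1854 against 2172, 1892 and 1319. Its libraries overlapped, and the 95% interval of its log2 fold change was −0.48 to 0.69 (limma adjusted p = 0.798).

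Actc1, the cardiac actin gene that skeletal muscle uses during development, rose beside Acta1. It was at 110 and 5 in wild type against 596, 1005 and 737 in mdx (log2 fold change 4.77, SE 0.97, limma adjusted p = 0.00796). The wild-type libraries were far apart, and the log2 fold change was 6.77 without wild type 1 and 2.77 without wild type 2. Without mdx 1, 2 or 3 it was not called (limma adjusted p = 0.0665, 0.0754 and 0.0767), nor in limma with neither trend nor robust estimation (0.0714). The coding sequences of the actin genes are very similar, so reads of Acta1, Actc1 and the smooth muscle actin gene Acta2 (2925 and 2129 against 4115, 2958 and 4015) may be split unevenly between them.

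Among tested genes of troponin, the calcium switch of the thin filament, only Tnnt1 was called, where 24.9% of all tested genes were. Differences between the troponin genes were not tested. Tnnt1 (chromosome 7, 4504570 to 4516004), encoding slow troponin T, was at 393 and 152 in wild type against 47, 58 and 29 in mdx, all below both wild-type libraries. It fell with a log2 fold change of −2.45 (SE 0.73, limma adjusted p = 0.0374). The call was lost without wild type 1 (log2 fold change −1.77, limma adjusted p = 0.212) and without mdx 1, 2 or 3 (0.0844, 0.0719 and 0.098), and the log2 fold change was −3.13 without wild type 2. It was also lost with libraries scaled to equal totals (limma adjusted p = 0.058), after length and GC correction (0.0832) and in a limma fit with neither trend nor robust estimation (0.0554).

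The fast troponin T gene Tnnt3 was at 160 and 161 in wild type against 394, 87 and 291 in mdx, so mdx libraries lay on both sides of wild type (limma adjusted p = 0.675). Tnni2, encoding fast troponin I, was at 33 and 61 against 216, 93 and 153, without overlap but not called (limma adjusted p = 0.115). Tnnt2, encoding the troponin T of heart and embryonic muscle, was at 8 and 9 against 1, 165 and 48, with its highest level in mdx 2 and its lowest in mdx 1. Tnni1, encoding slow troponin I, was listed at 0 in both libraries of wild type against 0, 140 and 22 in mdx. Tnnc1, encoding slow troponin C, was listed at 0 throughout wild type against 26, 0 and 18 in mdx. These 3 genes were not called (limma adjusted p = 0.555, 0.232 and 0.311).

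Troponin I and T genes sit in neighbouring pairs in the genome. Tnni2 and Tnnt3, both fast, are 54.4 kb apart on chromosome 7, and both had their highest level in mdx 1 and a lower one in mdx 2. Tnni1 and Tnnt2 are 25.4 kb apart on chromosome 1, and both had their highest level in mdx 2. Tnnt1 lies 2.3 kb from Tnni3, the cardiac troponin I gene, which was at 0 and 7 in wild type and 0, 0 and 36 in mdx and was not tested.

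Myosin heavy chain, the motor of the thick filament, showed higher developmental genes, a lower slow gene and no called change of the 3 adult fast genes. Myh3, Myh2, Myh1, Myh4 and Myh8 lie side by side within 230 kb of chromosome 11. Myh3, the embryonic gene (67078300 to 67102291), was at 35 and 22 in wild type against 218, 321 and 152 in mdx. It rose with a log2 fold change of 2.90 (SE 0.66, limma adjusted p = 0.0126), and was not called without mdx 1 (limma adjusted p = 0.0593) or mdx 2 (0.0689). Myh8, the neonatal gene (67277124 to 67308634), was listed at 0 in both libraries of wild type against 143, 59 and 45 in mdx (limma adjusted p = 0.0126).

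Of the fast genes between them, Myh4 (type IIb) was at 263 and 235 against 669, 279 and 531, with no overlap but no call (limma adjusted p = 0.161). Myh1 (type IIx) was at 81 and 74 against 86, 67 and 96, and its log2 fold change of 0.08 (95% interval −1.42 to 1.59, limma adjusted p = 0.942) was −0.17 after quantile normalization and −0.47 after length and GC correction. Myh2 (type IIa), which lies 2.53 kb from Myh1, was at 81 and 87 against 54, 36 and 1. Its mdx libraries were all below wild type, but it was not called (limma adjusted p = 0.265). Reads of these similar paralogs may be shared between them, so the split among Myh1, Myh2, Myh4 and Myh8 is less certain than their sum.

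Myh7, the slow myosin heavy chain gene (chromosome 14, 54970688 to 54994634), was at 85 and 35 in wild type against 5, 0 and 0 in mdx. It fell with a log2 fold change of −4.22 (SE 1.35, 95% interval −7.27 to −1.18, limma adjusted p = 0.0488). The call was lost without mdx 2 (limma adjusted p = 0.0867) or mdx 3 (0.0936), with a pseudocount of 0.5 (0.0716), with no filter (0.0591) and with equal library totals (0.0598). With either wild-type library left out it did not pass the filter. Myh7 shares 484, 142 and 523 bases of exon on the opposite strand with the antisense genes Mhrt, Gm29015 and Gm31251. Whether the counting used strand is not given here.

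**Figure D3:**
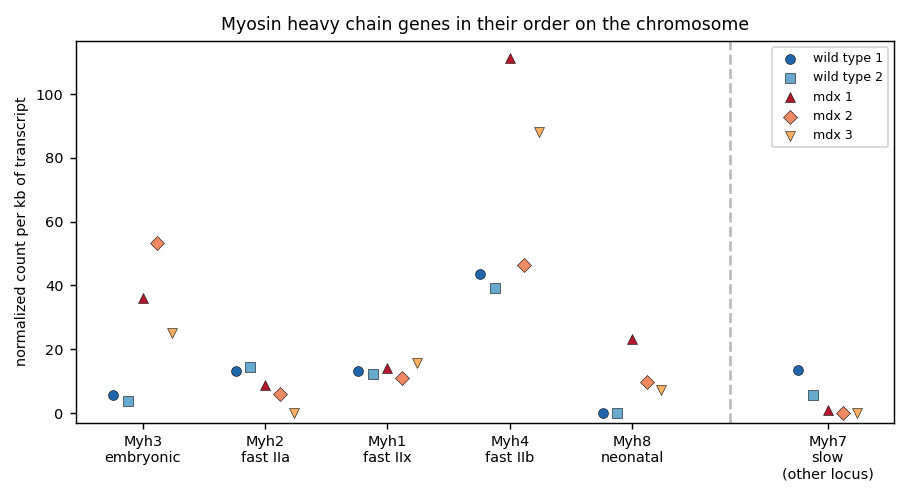
Normalized count per kb of the longest transcript for the 5 clustered myosin heavy chain genes, in their order on chromosome 11, and for Myh7 on chromosome 14, with 1 point per library. The outer genes of the row, Myh3 and Myh8, have all 3 mdx points above wild type. So does Myh4, narrowly in mdx 2 (46.4 per kb against 43.7 in wild type 1). Myh1 shows no separation, and Myh2 and Myh7 have all mdx points below.

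Among myosin light chains, which brace the neck of the motor, the fast pair came apart. Myl1, the fast essential light chain gene, was at 6 and 38 in wild type against 881, 323 and 481 in mdx. It rose with a log2 fold change of 4.85 (SE 0.78, limma adjusted p = 0.00253), or 3.69 and 6.02 without wild type 1 and 2. Mylpf, the fast regulatory light chain gene, was at 162 and 74 against 173, 38 and 162, with overlapping libraries (log2 fold change −0.09, 95% interval −1.93 to 1.74, limma adjusted p = 0.946). The sign of that small value turned with equal library totals (0.09) and after length and GC correction (0.71). Myl4, the embryonic and atrial light chain gene, was at 23 and 0 against 177, 31 and 60. It was not called (limma adjusted p = 0.108), but was without wild type 1 (0.00365). Myl2, the slow regulatory light chain gene, was at 29 and 0 against 15, 0 and 0 (limma adjusted p = 0.736).

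Myosin binding proteins stabilise the thick filament. Mybpc1, the gene of the slow form, was the most abundant of the 3 in every library, at 1832 and 1726 in wild type and 5923, 5851 and 4018 in mdx. It rose with a log2 fold change of 1.54 (SE 0.21, 95% interval 1.06 to 2.02, limma adjusted p = 0.00114), so the slow genes did not share a direction. Mybpc2, the fast form, was at 59 and 36 against 255, 48 and 120 (limma adjusted p = 0.298). Mybph was listed at 0 in both libraries of wild type against 29, 37 and 72 in mdx (limma adjusted p = 0.0273), and its call was lost without wild type 2 (0.0588) or mdx 3 (0.0528). It shares 1162 bases of exon on the opposite strand with Adora1, which was at 5 and 0 against 52, 34 and 32, so without a known strand setting the 2 genes cannot be told apart there.

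Of the 10 tested Z-disc and associated genes, 5 rose and 0 fell, where 14.6% of all tested genes rose and 10.3% fell. Of these, Actn2, Ldb3, Myoz1, Myoz2 and Tcap were under 10 in both wild-type libraries and passed the filter through mdx. That favours calls higher, and Actn2, Ldb3 and Myoz1 are among the 5 that rose. Actn2, encoding the alpha-actinin that crosslinks thin filaments in all fibers, was at 3 and 0 in wild type against 189, 356 and 175 in mdx (log2 fold change 6.18, SE 0.95, limma adjusted p = 0.00199). Its log2 fold change was 6.84 without wild type 1 and 5.52 without wild type 2. Actn3, encoding the fast-fiber alpha-actinin, was at 1486 and 739 against 1107, 206 and 1555, and its libraries overlapped (limma adjusted p = 0.614). Actn3 was therefore the main alpha-actinin RNA of the 2 in wild type, at 385 ± 183 per kilobase against 0.498 for Actn2.

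Ldb3, encoding the PDZ and LIM domain protein ZASP, was at 1 and 5 in wild type against 95, 88 and 112 in mdx, with a log2 fold change of 4.45 (limma adjusted p = 0.0135), or 3.83 and 5.06 without wild type 1 and 2. Xirp1, encoding an actin-binding repeat protein of muscle, was at 11 and 0 against 132, 89 and 80 (log2 fold change 4.29, limma adjusted p = 0.0253), or 5.64 and 2.94 without wild type 1 and 2. Both lost their call without any 1 of the mdx libraries, at limma adjusted p = 0.0529 to 0.0633 for Ldb3 and 0.0847 to 0.096 for Xirp1. Xirp1 also lost it after length and GC correction (0.068), and it lies within the span of the macrophage receptor gene Cx3cr1 on the same strand, with no shared exon base. Cx3cr1 was listed at 0 throughout wild type against 253, 418 and 175 in mdx.

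Myoz1, encoding the fast calsarcin, was listed at 0 throughout wild type against 98, 26 and 26 in mdx (limma adjusted p = 0.034). It was not called without wild type 1 (0.0544), wild type 2 (0.0687), mdx 2 (0.0523) or mdx 3 (0.0564), nor after quantile normalization (0.052) or with a pseudocount of 10 (0.056). The slow form Myoz2 was listed at 0 against 37, 0 and 12 (limma adjusted p = 0.321), and Myoz3 was at 0 and 5 against 0, 55 and 0. Tcap, encoding telethonin, which caps titin at the Z-disc, was at 1 and 0 against 27, 23 and 29 without overlap (limma adjusted p = 0.0665), and was called in limma with neither trend nor robust estimation (0.00665). Xirp2, at 102 and 7 against 604, 86 and 179, was not called (limma adjusted p = 0.106) except without wild type 1 (3.07e-06). Myot, encoding myotilin, was at 38 and 7 against 74, 7 and 0 (0.777).

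Des, encoding desmin, the intermediate filament that ties Z-discs together and is already made by satellite cells, had the highest level per kilobase of the 42 genes in both genotypes. It was at 5718 and 4672 in wild type against 8324, 8529 and 8087 in mdx, a 1.61-fold rise (log2 fold change 0.69, SE 0.16, limma adjusted p = 0.0139). After length and GC correction its log2 fold change was 0.46 and not called (limma adjusted p = 0.0938), and after quantile normalization it was 1.21. It was not called without wild type 2 (0.0726), mdx 1 (0.0656), mdx 2 (0.0626) or mdx 3 (0.0566), nor in limma with neither trend nor robust estimation (0.195). Its level per kilobase was 1716 ± 244 in wild type and 2746 ± 73.0 in mdx.

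The 2 cytoplasmic proteins of adult fibers were not called. Ckm, encoding muscle creatine kinase, was at 178 and 78 in wild type against 298, 63 and 229 in mdx (limma adjusted p = 0.694). Pvalb, encoding parvalbumin, the calcium buffer of fast fibers, was at 35 and 2 against 383, 10 and 65 (limma adjusted p = 0.282), and was called without wild type 1 (0.0172). In both genes mdx 1 was highest and mdx 2 lay below wild type 1.

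Isoform classes are set beside the 14.6% of all tested genes called higher and the 10.3% called lower. By isoform class, 4 of 6 genes grouped as developmental (Myh3, Myh8, Myl4, Mybph, Tnnt2 and Actc1) were called higher and 0 lower. Their median log2 fold change was 3.91 (3.12 for the 4 above 0 in wild type). Of this class, Mybph, Myh8 and Tnnt2 were under 10 in both wild-type libraries. They passed the filter through mdx, which favours calls higher, and Mybph and Myh8 are among the 4 called. Mybph, a binding protein gene among the 4 called, is in this class only by the grouping used here. Of 10 tested fast genes, 2 (Myl1 and Myoz1) were called higher and 0 lower, with a median of 0.66 (0.42 for the 9 above 0 in wild type). Of 8 tested slow genes, 1 (Mybpc1) was called higher and 2 (Tnnt1 and Myh7) lower, with a median of 0.83 (−0.95 for the 5 above 0 in wild type). Of the 17 genes in no such class, 10 were called higher, with a median of 2.56. For fast genes 20.0% and for slow genes 12.5% were called higher, both near the share over all genes. Also under 10 in both wild-type libraries were Myoz1 (fast), Tnnc1, Tnni1 and Myoz2 (slow), and Actn2, Ldb3, Tcap and Myom2 (no class). The classes themselves were not tested against each other.

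Shares of each isoform within its family, by normalized count per kilobase, describe the makeup of each library. Among the 6 heavy chains, Myh3 held 6.46% and 4.88% in wild type and 18.6%, 42.2% and 18.4% in mdx. Myh8 held 0.0% in both wild-type libraries and 12%, 7.61% and 5.35% in mdx, while Myh2 went from 14.8% and 19.1% to 4.57%, 4.69% and 0.12%. The share of Myh4 overlapped between genotypes, at 48.7% and 52.2% against 57.2%, 36.8% and 64.6%. Tnnt1 held 71.1% and 48.6% of troponin T in wild type and 10.8%, 29.6% and 8.79% in mdx. Actn2 held 0.193% and 0.0% of alpha-actinin against 14.1%, 62.3% and 9.73%. Within tropomyosin, Tpm3 went from 57.2% and 75.2% to 34.7%, 34.7% and 26.6% as Tpm1 and Tpm2 gained. The share of Actc1 among the 2 actins overlapped between genotypes (34.4% and 1.85% against 20.6%, 51.4% and 37.0%).

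**Figure D4:**
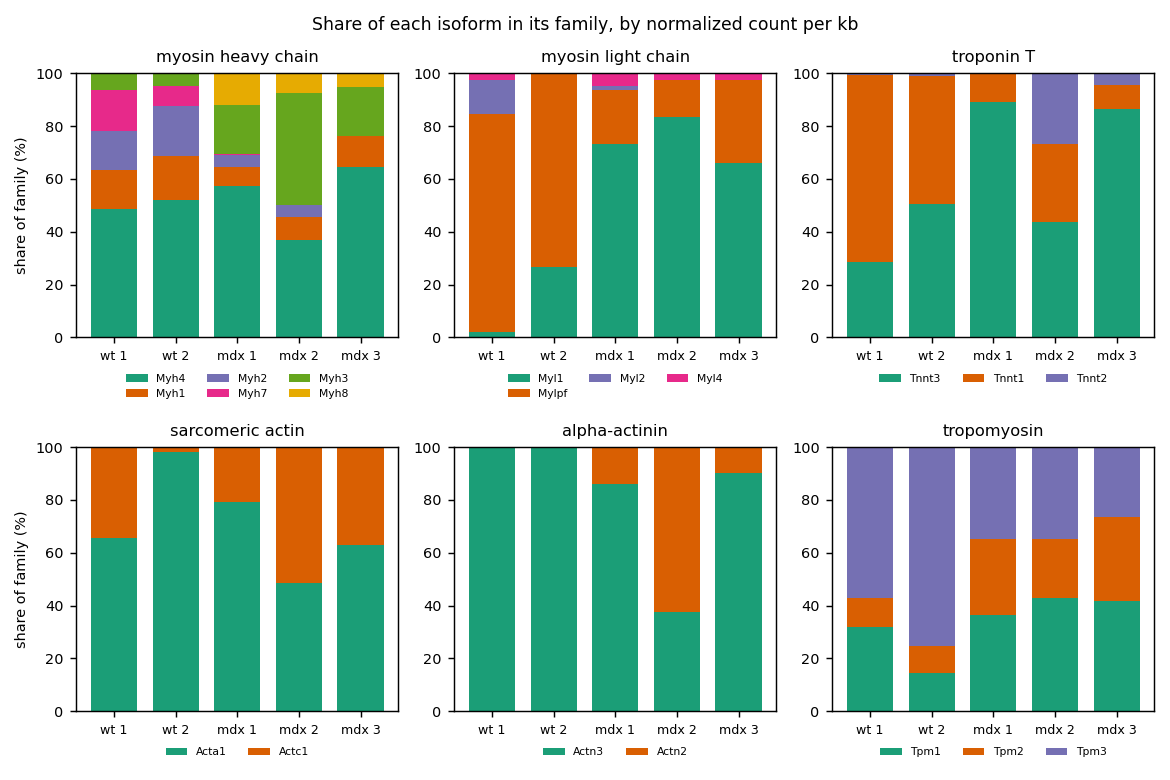
Stacked bars give the share (%) of each isoform in 6 gene families in each library, computed from normalized counts per kb of the longest transcript. Myh3 and Myh8 appear as larger blocks in the 3 mdx libraries, Tnnt1 and Tpm3 as smaller ones, and mdx 2 stands out by its large Myh3, Tnnt2, Actc1 and Actn2 blocks.

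The 3 mdx libraries differed in which sarcomere genes they held. Of the 41 tested genes, mdx 1 was highest of the 3 for 24, mdx 2 for 12 and mdx 3 for 5, where over all tested genes the shares were 32.6%, 34.9% and 30.2%. Among the 10 fast genes mdx 1 was highest for 8 and mdx 2 for 0, and mdx 2 was lowest for 8. The 12 genes highest in mdx 2 were Ttn, Neb, Actn2, Actc1, Tpm1, Des, Myom2, Myom3, Myh3, Tnnt2, Tnni1 and Tnnt1. As libraries of 1 group, these differences have no replicate check. In mdx 2 the embryonic gene Myh3 (321) lay above the adult fast gene Myh4 (279), while in mdx 1 and 3 Myh4 was above Myh3 by normalized counts of transcripts that are nearly equal in length (6.016 and 6.031 kb).

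Of 38 tested genes in a list of other sarcomere, chaperone and Z-disc genes, 12 were called higher (31.6%, against 14.6% of all tested genes) and 5 lower (against 10.3% of all tested genes), with a median log2 fold change of 1.41. Mypn, encoding myopalladin, Unc45b, encoding a myosin chaperone, and Trim55, encoding a titin-associated ubiquitin ligase, were listed at 0 in both libraries of wild type. They were at 182, 252 and 107, at 147, 180 and 110, and at 198, 336 and 248 in mdx (limma adjusted p = 0.00235, 0.00296 and 0.000904). Palld, encoding the actin-binding protein palladin, rose 4.33-fold (limma adjusted p = 0.000558). The 5 that fell were Hsp90aa1, Cfl2, Ankrd1, Fhl1 and Nebl. Hsp90aa1, encoding a stress chaperone that also folds myosin, was at 19303 and 16948 against 5100, 5052 and 4471 (log2 fold change −1.89, or −1.17 after quantile normalization, limma adjusted p = 7.39e-05). Cfl2, encoding muscle cofilin, which cuts actin filaments, was at 2351 and 2240 against 568, 539 and 569 (log2 fold change −2.03, limma adjusted p = 0.000288). Nebl, encoding nebulette, the small relative of nebulin, was at 696 and 274 against 61, 63 and 29, opposite in direction to Neb.

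Of 16 non-muscle cytoskeleton genes, 7 were called higher (43.8%, against 14.6% of all tested genes) and 3 lower (against 10.3%). Myh9, encoding non-muscle myosin, rose 4.13-fold and Actn1, encoding non-muscle alpha-actinin, 5.72-fold (limma adjusted p = 0.000147 for each). The log2 fold change of Myh9 was 2.05, but 1.08 after length and GC correction and 2.64 after quantile normalization. Of 15 tested fiber genes outside the sarcomere, 4 rose (Ryr1, Atp2a1, Eno3 and Atp2a2) and 0 fell. Called higher were thus 26.7%, against 14.6% of all tested genes, and lower 0, against 10.3%. In either direction, 24.9% of all tested genes were called. Ryr1, encoding the calcium release channel, was at 211 and 445 against 2140, 2669 and 1764 (log2 fold change 2.81, or 1.58 after length and GC correction), and Mb, encoding myoglobin of the fiber cytoplasm, was at 37 and 12 against 41, 77 and 0.

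Regulators of muscle differentiation were called higher for 11 of 18 tested (61.1%, against 14.6% of all tested genes) and lower for 1, Myf5 (against 10.3%). Tead1, whose protein binds the MCAT element, was at 741 and 961 against 2810, 3927 and 3258 (limma adjusted p = 0.000415), and Tead4, of the same family, was at 0 and 0 against 86, 235 and 164 (0.00321). Myog, encoding myogenin, was at 91 and 1 in wild type against 1806, 1605 and 1491 in mdx, and Mef2c, whose protein acts on many sarcomere genes, was at 7 and 4 against 475, 781 and 581 (limma adjusted p = 0.00343 and 0.000179). Myod1 was at 327 and 199 against 713, 878 and 937 (0.00592). Myog was called in 2 of 5 fits with 1 library left out (highest limma adjusted p 0.0564), and its log2 fold change ranged from 4.13 to 9.09. Myod1 was called in 4 of those 5 fits (highest limma adjusted p 0.0521). Myf5 was also called in 4 of them, and lost its call after length and GC correction (0.0548). A link between these regulators and the sarcomere genes was not tested.

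Long transcripts were higher in mdx as a whole, and Ttn and Neb are among the longest. By quartile of longest-transcript length, the median log2 fold change of all tested genes went from −0.52 in the shortest to 0.05, 0.19 and 0.52 in the longest, and the share called higher was 4.35%, 9.56%, 15.5% and 29.1%. The sarcomere genes had medians of 2.43, 2.05, 1.51 and 2.85 in those quartiles, with 4 of 12, 3 of 9, 3 of 6 and 7 of 14 called higher. Across the 41 genes, which share the same libraries, the log2 fold change correlated little with log2 length (Pearson's r = 0.127, Spearman's rho = 0.0904), against 0.339 and 0.230 across 18173 genes. With length and GC trends taken out of each library, 15 sarcomere genes were called higher and 1 lower, where 11.7% and 7.90% of all tested genes were (19.6% in either direction). In that fit the log2 fold change was 4.22 for Ttn and 3.08 for Neb.

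**Figure D5:**
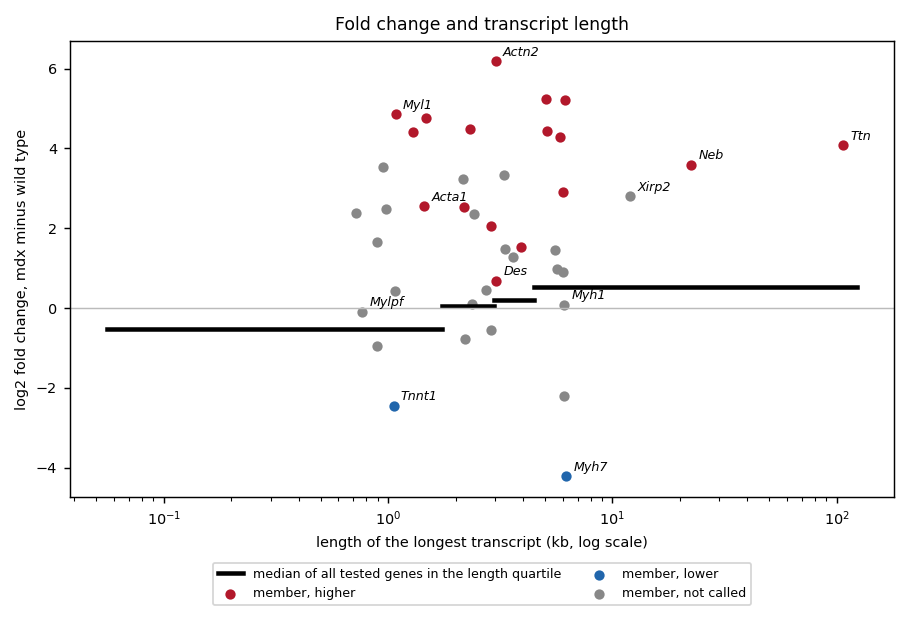
Log2 fold change (mdx minus wild type) of the 41 tested genes against the length of their longest transcript in kb (log scale). Black bars give the median of all tested genes in each length quartile, rising from −0.52 to 0.52. Called genes are spread over short (Myl1, Acta1) and long (Neb, Ttn) transcripts.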

How the data were processed

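Total RNA of sorted cells was measured in 2 wild-type and 3 mdx libraries. Per the submitters' processing notes, STAR 2.6.1d, featureCounts 1.6.3 and DESeq2 1.18.1 were named, with build mm10. Their roles, the strand setting and gene filters are not given in the labels. The authors deposited whole numbers that are not raw counts but a score, the normalized count: their median ratio to the geometric gene means is equal to within rounding in all columns although totals differ. A count model was therefore not used.

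Values were analysed as log2(normalized count + 2) for genes with at least 10 in at least 2 libraries, with limma 3.58.1 in R 4.3.3 (trend and robust moderation, genotype only), two-sided, adjusted by Benjamini-Hochberg over all tested genes. Folds are on that scale, which understates changes of low genes. Where a gene is at 0 throughout wild type, no fold is given. Intervals are 95%. Transcript lengths and overlaps came from GENCODE M21, and promoters from RefSeq (GRCm38.p6). The limma fit was tested on simulated data. The length and GC correction subtracts spline trends (4 df each) per library and restores each library's median.

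The genes and all lists were chosen with earlier results of these data known. Every sarcomere gene is named, and from other lists up to 4 called genes with the smallest p and 1 opposite to most calls. Pax7, Myod1, Myog, Mef2c, Dmd and Xist are named whatever their test. Others were chosen after their values were seen (Mb, Acta2, Tnni3, Cfl2, Ankrd1, Fhl1, Nebl, Myl12a, Adora1, Cx3cr1, Notch3, Kcnj8). Alternatives covered pseudocount, filter, scaling, length and GC, variance model, replicate block and leaving out each library.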

Additional observations from a re-analysis of the deposited data

How the results depend on the processing

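All alternatives were run for the 3 counts and for each sarcomere gene. Over all tested genes, limma called 4527, but 3005 with neither trend nor robust estimation and 2562 to 5161 with 1 library left out. Sarcomere genes called higher were 17, and 10 to 19 with 1 library left out. Those called lower were 2, but 1 with a pseudocount of 0.5, with no filter, with a filter at 50, after length and GC correction and with neither trend nor robust estimation, 0 with equal library totals, and 0 to 1 with 1 library left out. Without a wild-type library, the lone remaining one is assumed to vary like mdx. Replicate numbers gave no sign of pairing (deviations of same-numbered libraries correlated at −0.0138 and −0.0173). With 2 wild-type libraries both values rest on the same wild-type difference, so they cannot decide whether libraries were paired. Under the replicate block, 2023 genes were called, with 9 sarcomere genes higher (6.39% of all) and 0 lower (4.73%). Under the block with length and GC correction, 1667 genes were called, with 9 sarcomere genes higher (5.18% of all) and 0 lower (3.98%). Uncalled genes changed sign as follows. Myh1 (0.08) was −0.17 after quantile normalization, −0.47 after length and GC correction, −0.0275 with the block, −0.57 with the block and correction, and −0.0275 to 0.226 with 1 library left out. Mylpf (−0.09) was 0.0894 with equal totals, 0.71 after length and GC correction, 0.41 with the block and correction, and −0.647 to 0.602 with 1 library left out. With the block and correction Myl2 was 0.32 and Myot 0.98, and Myot was 0.463 with the block. With 1 library left out, Myot ranged from −1.85 to 0.463, Tnnt3 from −0.00904 to 1.07, Tpm3 from −0.0777 to 0.313, Actn3 from −1.13 to 0.324 and Ckm from −0.124 to 1.13. The cause of these changes was not tested. Equal totals raised the share of calls higher in mdx from 58.7% to 67.7%, and the median log2 fold change from 0.135 to 0.32. Read depth is unknown from normalized values, and genes under about 100 counts have the widest intervals.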
